A study of Solanum lycopersicum x Solanum pennellii and Solanum lycopersicum with 17 samples.

Results

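The transcripts described here are those of 5 tomato genes, 4 for enzymes that act on xyloglucan (tXET-B2, XTH1, XTH3 and XTH6) and 1 for an inhibitor (Xegip). They were chosen by symbol from the array's annotation, with earlier results of these data known. Each was read by 1 probe set, so 5 of the 10101 tested probe sets are concerned. Xyloglucan is the main hemicellulose of the primary walls of tomato and is held to tie cellulose microfibrils together. Xyloglucan endotransglycosylase/hydrolases (XTHs) cut a xyloglucan chain and join the cut end to another chain or to water, and by doing so they loosen, strengthen or build the wall. They form a large family in plants, and its members are known for their part in organ growth and fruit ripening, while Xegip is a tomato protein known to inhibit a fungal xyloglucan-degrading glucanase.

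RNA came from tomato (Solanum lycopersicum) carpels taken 7 days after pollination, when the ovary grows into a young fruit, and each sample was hybridised to its own Affymetrix array. The control was the parental cultivar M82 (6 arrays, titled as a seed control). The lines were IL-1_1 (4 arrays), IL-1_4 (3 arrays) and IL-2_3 (4 arrays), in which a segment of the wild species Solanum pennellii sits in an M82 background and the first digit of the name is that of the chromosome. All plants were grown in a greenhouse and treated alike, per the labels, and the design text speaks of hybrids without saying whether the segment was homozygous. The labels do not say whether replicates are different plants, and p-values therefore cover only the spread between these samples, which may be technical.

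Values are log2 intensities, with the base inferred from their range, and a value of 1 probe set cannot be set against that of another. Array medians ran from 9.97 to 10.045 and correlations between arrays of 1 group from 0.95 to 0.996. Precision is limited by how few arrays there are. In whole carpels, fewer cells of a type and less RNA per cell cannot be told apart. Of the carpel and young fruit markers 4 of 8 had a probe set (fsm1, TAGL1, TDR4 and TDR8), and their summed log2 level ran from 11.54 to 13.24 in M82, 12.96 to 13.57 in IL-1_1, 12.21 to 12.75 in IL-1_4 and 12.35 to 12.61 in IL-2_3. TAGL1, a MADS-box gene of the ovary, stayed between 10.78 and 11.23 on all 17 arrays. No probe set was named for pollen or style markers. Of 4 listed seed markers only MAN1 was matched by symbol, and it lay between 4.56 and 5.18. The seed list also names LeMAN2, which matched no symbol, and whether the array's MAN2 is that gene was not checked. MAN2, another mannanase gene, was read only with the cell wall genes. By means it stood at 8.61 in IL-1_4, 8.46 in M82, 7.07 in IL-2_3 and 6.51 in IL-1_1. MAN1 alone therefore does not show that seed content was low or alike, and this was not tested.

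Transcripts of tXET-B2 and XTH3 were higher in IL-1_1 than in M82 by 5.88-fold and 4.91-fold, while XTH1, XTH6 and Xegip passed no test in any comparison. In IL-1_1 against M82 12.2% of all tested probe sets were called at an adjusted p of 0.05 and 6.4% were called higher. Of the 5 genes 2 were called, both higher. Because the 5 genes were chosen with earlier results of these data known, their count is no test of the family. The 7 further probe sets with a symbol of the family had 0 calls in this comparison. Only 9% of the tested probe sets carry a symbol, so unnamed members of the family were not examined. None of the 5 was called in IL-1_4 (background 0.644%) or in IL-2_3 (background 0.901%) against M82. The limma test without adjustment gave an unadjusted p under 0.05 for 3 of 5 (tXET-B2, XTH3 and XTH6) in IL-1_1, beside 33.5% of all probe sets. It gave 0 of 5 in IL-1_4, beside 3.52%, and 1 of 5, XTH6, in IL-2_3, beside 4.66%. The 3 comparisons share the M82 arrays. The plot of array values shows all 5 genes.

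**Figure D1:**
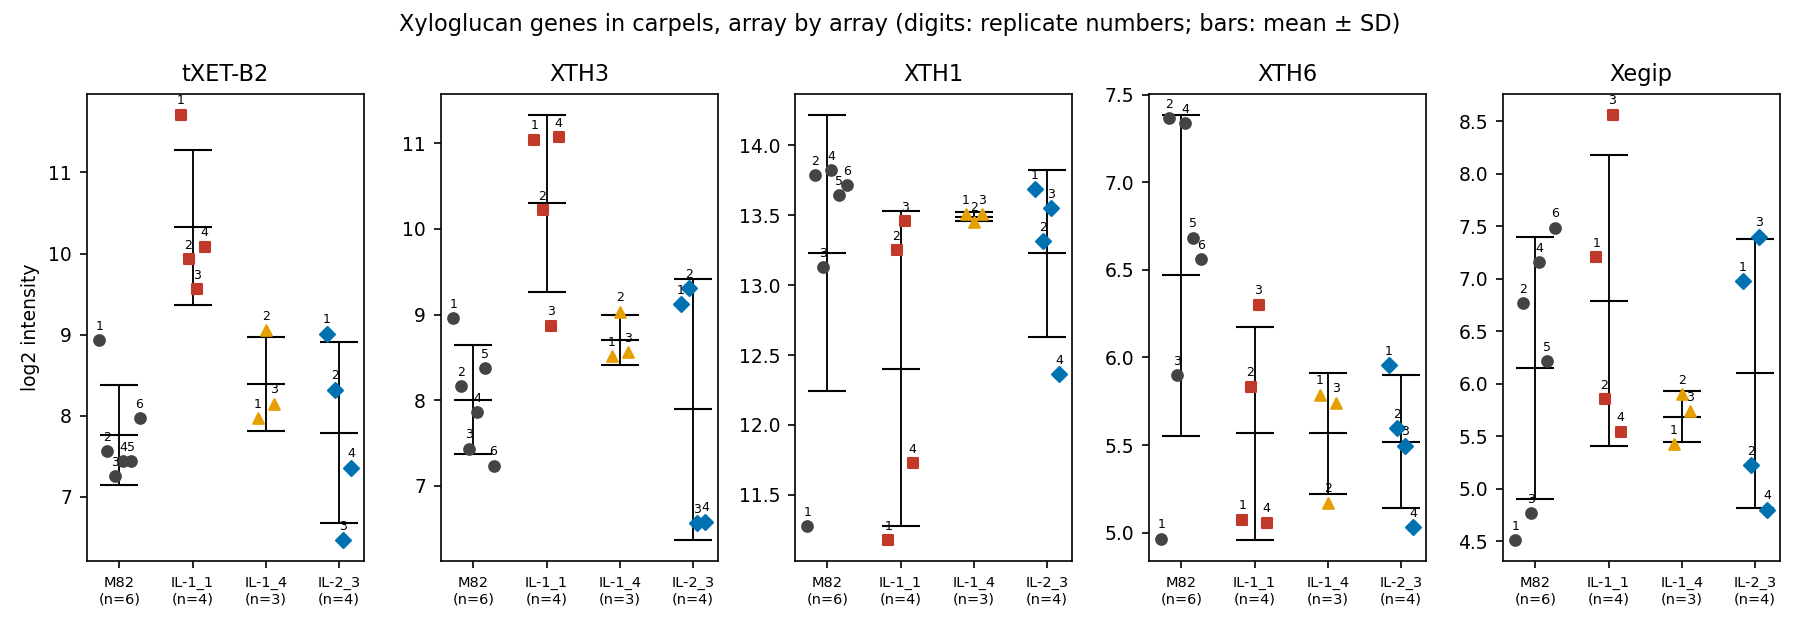
Log2 intensity of each gene on each of the 17 arrays (y axis, 1 scale per panel) by group (x axis), with the replicate number beside each point and the mean ± SD as bars. All IL-1_1 arrays of tXET-B2 lie above all M82 arrays, and XTH1 has a low array in M82, 2 in IL-1_1 and 1 in IL-2_3.

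The tXET-B2 gene (Entrez 544100) encodes a tomato xyloglucan endotransglycosylase. Its log2 level in IL-1_1 was 11.71, 9.93, 9.56 and 10.08 on replicates 1 to 4. In M82 the lowest array stood at 7.26, the median was 7.50 and the highest was 8.93, on replicate 1. All 4 IL-1_1 arrays thus lay above all 6 M82 arrays, with 0.64 between the nearest, a separation seen upward in 3.04% of all probe sets. IL-1_4 gave 7.97, 9.05 and 8.15. IL-2_3 gave 9.01, 8.32, 6.46 and 7.36, and its lowest array lay below all M82 arrays. Both of these lines overlapped with M82 and lay wholly below IL-1_1, as 17.5% of all probe sets did for IL-1_4 and 4.77% for IL-2_3.

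In order of the means, tXET-B2 stood at 10.32 ± 0.95 (SD, n = 4) in IL-1_1, 8.39 ± 0.58 (n = 3) in IL-1_4, 7.79 ± 1.11 (n = 4) in IL-2_3 and 7.76 ± 0.62 (n = 6) in M82. The rise in IL-1_1 over M82 was 2.56 ± 0.50 on the log2 scale (SE, 95% interval 1.49 to 3.62; limma adjusted p = 0.00613), and 0.535% of all probe sets changed by more. Against the other line with a chromosome 1 segment, IL-1_4, IL-1_1 was higher by 1.93 ± 0.59 (limma adjusted p = 0.0379; 17.6% of all probe sets called). Against IL-2_3 it was higher by 2.53 ± 0.55 (limma adjusted p = 0.0128; 4.87% called). The difference of IL-1_4 from M82 was 0.62 (95% interval -0.54 to 1.79) and that of IL-2_3 was 0.02 (-1.04 to 1.09), and the neighbours IL-1_4 and IL-2_3 differed by 0.60 (-0.66 to 1.86; 1.54% called between these lines). None of these passed. The call over M82 was kept in all 17 fits that left out 1 array and in all 9 other settings that were tried, the smallest difference being 2.03 (adjusted p = 0.0355) with a covariate for the main axis of variation inside groups. The call over IL-1_4 was lost without IL-1_1 replicate 1 (1.47, adjusted p = 0.105) or replicate 4 (0.0663), without any 1 of the IL-1_4 arrays (0.0576 to 0.118), and with that axis covariate (1.30, 0.218). It was also lost without IL-2_3 replicate 4 and replicate 1 of both M82 and IL-1_1 (1.47, 0.0599) and without the 2 arrays with the largest 3-prime to 5-prime control differences, M82 replicate 5 and IL-1_4 replicate 1 (1.72, 0.119). Fitted on their own arrays alone, IL-1_1 and IL-2_3 gave an adjusted p of 0.0964.

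XTH3 (Entrez 543914), another enzyme of the family, gave 11.04, 10.22, 8.87 and 11.07 on the IL-1_1 arrays. M82 ran from 7.24 through a median of 8.02 to 8.96. The third IL-1_1 array fell 0.09 short of the highest M82 array, and the other 3 lay above all of M82. IL-1_4 gave 8.51, 9.03 and 8.56. IL-2_3 split into 9.12 and 9.31 on replicates 1 and 2 and 6.57 and 6.58 on replicates 3 and 4, so that its arrays lay on both sides of the M82 range.

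By means, XTH3 stood at 10.30 ± 1.03 (SD, n = 4) in IL-1_1, 8.70 ± 0.29 (n = 3) in IL-1_4, 8.01 ± 0.63 (n = 6) in M82 and 7.89 ± 1.53 (n = 4) in IL-2_3. The rise in IL-1_1 over M82 was 2.29 ± 0.58 (SE, 95% interval 1.05 to 3.54; limma adjusted p = 0.0236), and that over IL-2_3 was 2.41 ± 0.64 (limma adjusted p = 0.0429). Against IL-1_4 the difference of 1.60 ± 0.69 (0.12 to 3.07) was not called (limma adjusted p = 0.11). Without IL-1_1 replicate 3 it was 2.08 and called (adjusted p = 0.0485), so 1 array decides whether XTH3 is called between the lines with a chromosome 1 segment. IL-1_4 and M82 differed by 0.70 (-0.67 to 2.06) and IL-2_3 and M82 by -0.11 (-1.36 to 1.13), neither of which passed. The call over M82 was lost without IL-1_1 replicate 1 (2.05, adjusted p = 0.083) or replicate 4 (2.04, 0.085). It was also lost without the same 2 arrays with large control differences (2.37, 0.0512) and with the axis covariate (2.19, 0.082). The call over IL-2_3 was kept in 6 of 17 fits without 1 array, with the adjusted p at up to 0.138, and the difference was then 1.96 to 2.88. Fitted on the 2 lines' own arrays it was at an adjusted p of 0.165, without those 2 arrays at 0.0645, with the axis covariate at 0.0775, and without IL-2_3 replicate 4 and replicate 1 of both M82 and IL-1_1 at 0.123, where the difference was 1.72.

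**Figure D2:**
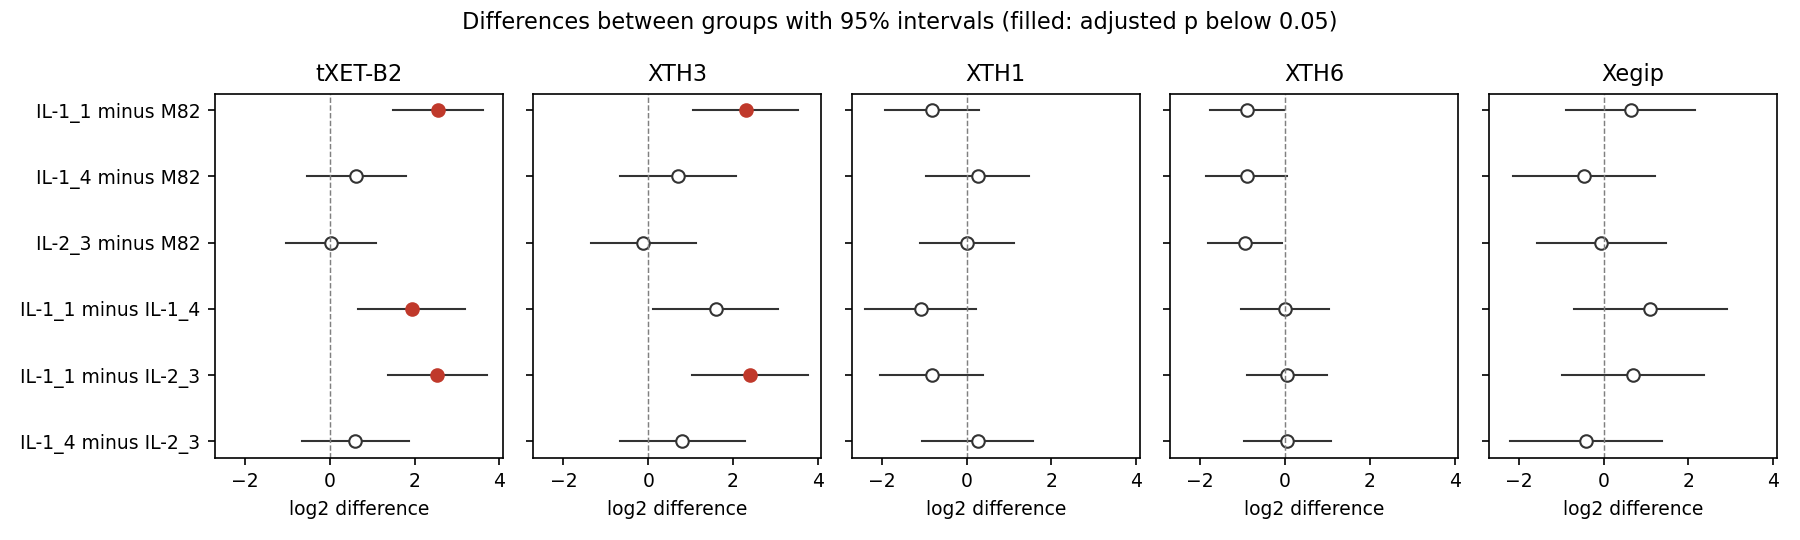
Log2 difference of each gene (x axis, point) with its 95% interval (line) in the 6 comparisons (y axis, first group minus second), filled where the limma adjusted p was below 0.05. The 5 filled points belong to tXET-B2 (3) and XTH3 (2), all in comparisons of IL-1_1.

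XTH1 (Entrez 544272), also an XTH of tomato, had a narrow upper level and a few low arrays. In M82 the lowest array was 11.28, the median 13.68 and the highest 13.82. IL-1_1 gave 11.18, 13.25, 13.46 and 11.73. IL-1_4 gave 13.51, 13.45 and 13.51, and IL-2_3 gave 13.68, 13.31, 13.55 and 12.36. The low values thus sat on M82 replicate 1, IL-1_1 replicates 1 and 4 and IL-2_3 replicate 4, each over 1 unit below the median of 17 arrays, while the other 13 lay at 13.13 or above.

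The means of XTH1 were 13.49 ± 0.03 (SD, n = 3) in IL-1_4, 13.23 ± 0.99 (n = 6) in M82, 13.23 ± 0.60 (n = 4) in IL-2_3 and 12.40 ± 1.12 (n = 4) in IL-1_1. The difference of IL-1_1 from M82 was -0.83 ± 0.52 (SE, 95% interval -1.93 to 0.28; limma adjusted p = 0.272), and it was not called. Without M82 replicate 1 it was -1.22 and called (limma adjusted p = 0.0374), in a fit where 30.5% of all probe sets were called. With the axis covariate it was 0.19 (0.744). No neighbours in the order of the means differed beyond their spread: IL-1_4 against M82 gave 0.26 (-0.95 to 1.47), IL-2_3 against M82 -0.0012 (-1.11 to 1.11) and IL-1_1 against IL-2_3 -0.82 (-2.04 to 0.39).

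XTH6 (Entrez 544265), the fourth enzyme, was among the dimmest 25% of probe sets. Its M82 arrays ran from 4.97 through a median of 6.62 to 7.37, with replicate 1 the lowest. IL-1_1 gave 5.07, 5.83, 6.30 and 5.06, IL-1_4 gave 5.79, 5.17 and 5.74, and IL-2_3 gave 5.95, 5.60, 5.49 and 5.03. Each line lay within the M82 range.

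The lines had almost 1 mean of XTH6, at 5.57 ± 0.61 (SD, n = 4) in IL-1_1, 5.57 ± 0.34 (n = 3) in IL-1_4 and 5.52 ± 0.38 (n = 4) in IL-2_3, beside 6.47 ± 0.92 (n = 6) in M82. The differences from the same M82 arrays were -0.90 (95% interval -1.77 to -0.03), -0.90 (-1.85 to 0.05) and -0.95 (-1.82 to -0.08), and none was called (limma adjusted p = 0.136, 0.99975 and 0.936). Between lines the differences were -0.0004 (-1.03 to 1.03), 0.05 (-0.90 to 0.999) and 0.05 (-0.98 to 1.08). Without M82 replicate 1 the difference of IL-1_1 from M82 was -1.20 and called (limma adjusted p = 0.0158), where 30.5% of all probe sets were called. The axis covariate brought this difference to -0.16 (0.785).

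Xegip (Entrez 543853), the inhibitor, was also among the dimmest 25% and varied most within groups. Its M82 arrays ran from 4.51 through a median of 6.49 to 7.49. IL-1_1 gave 7.21, 5.85, 8.56 and 5.54, IL-1_4 gave 5.42, 5.90 and 5.74, and IL-2_3 gave 6.98, 5.22, 7.40 and 4.80. All groups overlapped with each other, and IL-1_4 lay inside the M82 range. Its SD within groups, pooled over the 4 groups, was 1.19, beside 0.68 for XTH6, 0.83 for tXET-B2, 0.87 for XTH1 and 0.98 for XTH3.

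The means of Xegip were 6.79 ± 1.38 (SD, n = 4) in IL-1_1, 6.15 ± 1.25 (n = 6) in M82, 6.10 ± 1.28 (n = 4) in IL-2_3 and 5.69 ± 0.24 (n = 3) in IL-1_4, and no neighbours differed beyond that spread. Against M82 the differences were 0.64 (95% interval -0.88 to 2.16) in IL-1_1, -0.46 (-2.13 to 1.21) in IL-1_4 and -0.05 (-1.57 to 1.47) in IL-2_3, with limma adjusted p of 0.542, 0.99975 and 0.99898. The difference of IL-1_1 was 0.05 (adjusted p = 0.966) without IL-1_1 replicate 3, 1.06 (0.392) without IL-1_1 replicate 4 and 1.31 (0.348) with the axis covariate. It was called in none of the 25 alternatives that could be fitted for it.

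Array by array, the genes showed 2 main patterns, described here with no test because the arrays share groups and their overall RNA profile. The values of tXET-B2 and XTH3 moved together, with Pearson r of 0.90 and Spearman rho of 0.91 over 17 arrays, and r was 0.85 without IL-1_1 replicates 1 and 4, the arrays farthest from the tXET-B2 median. With group means removed r was 0.76 and rho 0.81, and among the 6 M82 arrays r was 0.58. Among the 10100 other probe sets XTH3 was the closest to tXET-B2, and tXET-B2 was the second closest to XTH3. The highest tXET-B2 value of M82 and its highest XTH3 value were both on replicate 1, and in IL-2_3 replicates 1 and 2 were high and 3 and 4 low in both genes.

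XTH1 and XTH6 followed the other pattern, with r of 0.70 and rho of 0.82 over 17 arrays and r of 0.88 and rho of 0.88 with group means removed. The latter r was 0.80 without M82 replicate 1 and IL-1_1 replicate 1, and over the 13 arrays without low XTH1 the r of the values was 0.67. Xegip went with them to a lesser degree within groups (r of 0.61 with XTH1 and 0.67 with XTH6). XTH1 and XTH6 were not each other's closest genes. Over 17 arrays XTH1 had r of 0.99 with PGH1, and XTH6 had r of 0.80 with DHAR2. Along the main axis of variation within groups, the first principal component of all probe sets after group means were removed, the r of the deviations from group means was -0.89 for XTH1, -0.83 for XTH6, -0.43 for Xegip, 0.48 for tXET-B2 and 0.08 for XTH3. The arrays with low XTH1 had the highest scores on it, 42.59 for M82 replicate 1, 60.98 and 32.40 for IL-1_1 replicates 1 and 4 and 31.13 for IL-2_3 replicate 4, and the next array scored 9.74.

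CAB4, a chlorophyll a/b-binding protein gene and the 1 green tissue marker of 7 with a probe set, moved with XTH1 within groups (r of 0.97, rho of 0.92) and with XTH6 (r of 0.86, rho of 0.78). The r with XTH1 was 0.93 without M82 replicate 1 and IL-1_1 replicate 1, and 0.51 for the values of the 13 arrays without low XTH1. On the arrays with low XTH1 it stood at 10.17 (M82 replicate 1), 10.27 and 11.45 (IL-1_1 replicates 1 and 4) and 11.44 (IL-2_3 replicate 4), and on the other 13 between 12.32 and 13.56. The summed carpel and young fruit markers ran the other way (r of -0.74 with XTH1 and -0.76 with XTH6). Part of that sum is fsm1, a gene of early fruit growth, so it is no separate observation. It stood at 12.73 on M82 replicate 1 and between 8.64 and 11.75 on the other M82 arrays. For tXET-B2 the r was 0.48 with the carpel markers and -0.51 with CAB4, and for XTH3 0.27 and -0.33. In IL-1_1 the carpel marker sum was at 12.96 to 13.57, beside 11.54 to 13.24 in M82. By means in IL-1_1 and M82, fsm1 stood at 12.62 and 10.61, TDR4 at 9.92 and 8.61 and TDR8 at 8.35 and 5.32. TAGL1 was level at 10.94 and 10.96. The part of these markers and of the axis in the differences between groups was not tested beyond the axis covariate, whose value for IL-1_1 against M82 is given with each gene. The axis scores themselves differed between these groups, from -0.67 to 60.98 in IL-1_1 and from -36.44 to 42.59 in M82. The covariate can therefore also take out part of a difference between the groups.

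**Figure D3:**
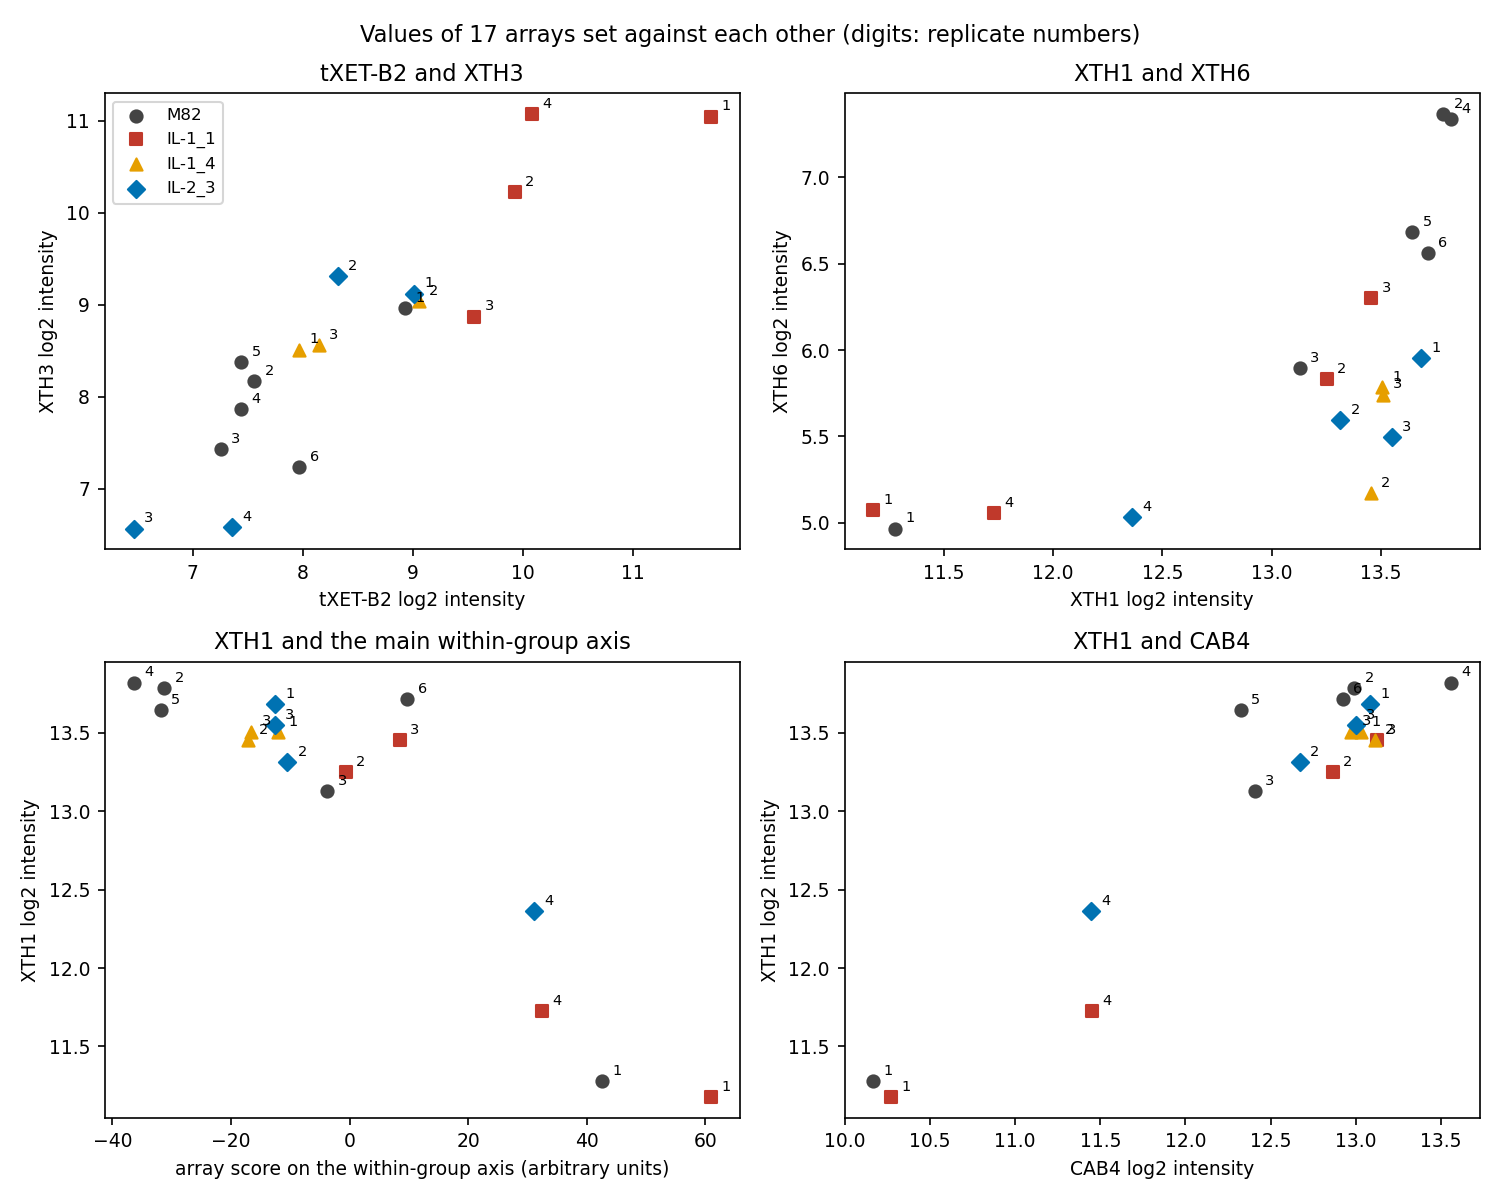
Log2 intensities of tXET-B2 against XTH3, XTH1 against XTH6, and XTH1 against the array score on the within-group axis and against CAB4, with 1 point per array, coloured by group and numbered by replicate. The first panel rises along all groups (r of 0.90), and in the other 3 the same 4 arrays stand apart at low XTH1.

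The rule for likeness took the highest Pearson r over 17 arrays among 697 named probe sets outside the 5 genes, leaving out names that are only LOC numbers. Of these, tXET-B2 was closest to DREB3, a DREB-type transcription factor gene by its symbol (r of 0.85), Fad7, a plastid fatty acid desaturase gene (0.82), and Wfi1 (0.82). XTH3 was closest to SPE4 (0.73), the peroxidase gene TPX2 (0.72) and the ACC synthase gene ACS3 (0.71), all below its r with tXET-B2. With group means removed r fell to 0.49, 0.44 and 0.66 for these. For DREB3, Fad7 and Wfi1 with tXET-B2 it was then 0.79, 0.71 and 0.68. XTH1 was closest to PGH1 (0.99), the fructokinase gene FRK2 (0.98) and the chaperonin gene CPN21 (0.98). XTH6 was closest to the dehydroascorbate reductase gene DHAR2 (0.80), the auxin-response gene IAA17 (0.75) and CGS (0.75). Xegip was closest to AN34 (0.89), chMDH (0.77) and the endoglucanase gene CEL8 (0.73), whose r with Xegip was 0.93 once group means were removed.

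The other symbols of the xyloglucan endotransglycosylase family on the array (XTH5, XTH7, XTH16, XET2 and XET4, 7 probe sets) had 0 calls with limma in IL-1_1 against M82 and 1 probe set, XET4, with an unadjusted p under 0.05, beside 12.2% and 33.5% of all probe sets. Their changes there ran from -0.19 to 0.58 with a median of 0.09, beside a median of -0.025 over all probe sets. XET4 was nearest to a call, at 5.25 ± 0.30 (SD, n = 6) in M82 and 5.83 ± 0.36 (n = 4) in IL-1_1, a difference of 0.58 ± 0.19 (SE; limma adjusted p = 0.0562). The 3 probe sets of XTH16 lay between 13.59 and 14.27 on the M82 and IL-1_1 arrays and gave 0.05, 0.07 and 0.09, with SEs of 0.07, 0.09 and 0.09. XTH5 gave 0.41 ± 0.34, XET2 0.22 ± 0.33 and XTH7 -0.19 ± 0.35. In IL-2_3 XTH7 stood at 7.56 ± 0.45 (SD, n = 4) beside 8.43 ± 0.75 in M82, a difference of -0.87 ± 0.35 (SE; limma adjusted p = 0.822), also not called.

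Among the wider set of cell wall probe sets (47, of families listed by symbol), 2 were called higher and 4 lower in IL-1_1, with a median change of -0.16. That is 6 of 47, beside 12.2% over all probe sets. The beta-galactosidase genes TBG3 (1.02 ± 0.30 SE, limma adjusted p = 0.0393) and TBG2 (0.62 ± 0.16, 0.0259), of a family that trims galactose from wall polymers, rose. The mannanase gene MAN2 fell by 1.95 ± 0.59 (limma adjusted p = 0.0434). The pectin methylesterase gene PME2.1 fell by 1.02 ± 0.23 (limma adjusted p = 0.0132). PE1, caught by the pattern for pectate lyases though its symbol is also used for pectin esterases, fell by 0.39 ± 0.10 (limma adjusted p = 0.0289). The other call was PMEU1, a further pectin methylesterase gene, at -0.31 ± 0.09 (limma adjusted p = 0.0336), which stands outside the rule of the 5 largest changes and is named after its values were seen. None of the 13 expansin, 6 endo-1,4-beta-glucanase or 1 xylosidase probe sets was called with limma; 5, 0 and 0 of them had an unadjusted p under 0.05, beside 33.5% of all probe sets.

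**Figure D4:**
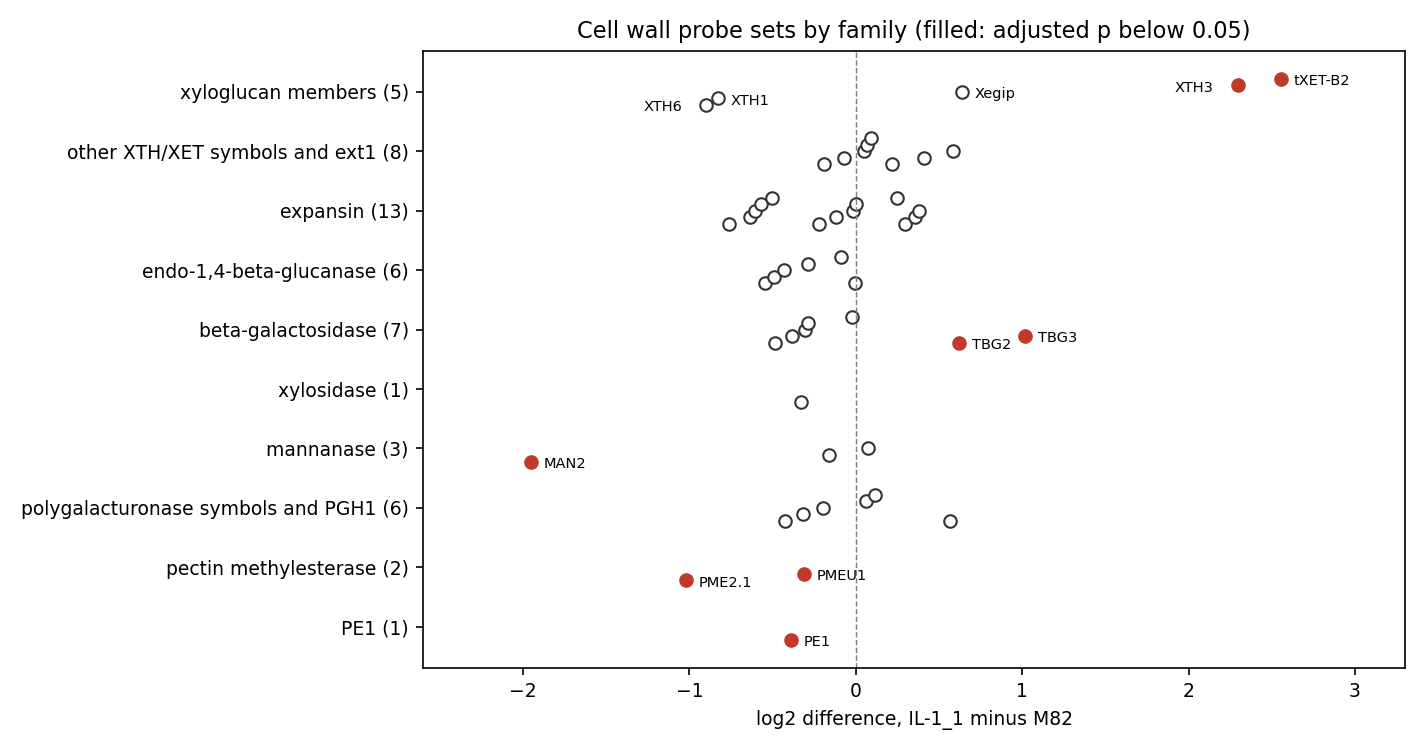
Log2 difference of IL-1_1 minus M82 (x axis) for the 5 xyloglucan genes and the 47 other cell wall probe sets, by family (y axis, number of probe sets in brackets), with 1 point per probe set and filled points for a limma adjusted p below 0.05. tXET-B2 and XTH3 have larger rises than any probe set of the other families, among which TBG3 is highest at 1.02.

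In IL-1_4 and IL-2_3 against M82, 0 of the 47 cell wall probe sets were called with limma, and 1 and 6 had an unadjusted p under 0.05, beside 3.52% and 4.66% of all probe sets. Their medians were -0.009 and 0.006, beside 0.019 and 0.003 over all probe sets. The count of 6 in IL-1_1, where 12.2% of all probe sets were called, was 0 without IL-1_1 replicate 4 (4.17% of all called), 0 in a fit of only the IL-1_1 and M82 arrays (3.73%) and 1 without IL-1_1 replicate 1 (4.64%). It was 2 or 3 without M82 replicate 2, 3, 4 or 5 (5.42% to 7.18%) and 14 without M82 replicate 1 (30.5%). The rise of tXET-B2 over M82 kept its call in each of these settings.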

How the data were processed

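The deposited log2 values (1 column per array, 1 row per probe set) were taken unchanged. The authors used affy, per the submitters' processing notes. How background, normalization and summarization were set, and the version, is not given in the sources used here. All arrays had nearly the same distribution of values. The labels used here give no scan date or batch. Of 10209 probe sets 108 controls were left out and 10101 tested. The platform annotation, of 2007, gives 1 symbol to 909 probe sets (9%).

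All 17 arrays entered 1 limma fit (limma 3.58.1, R 4.3.3) with 1 mean per group and two-sided moderated tests, adjusted by Benjamini-Hochberg over all probe sets of each of 6 comparisons and called at 0.05. The fit was tested on simulated data. The 5 genes, the lists and the tests were chosen with earlier results of these data known.

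Named genes were the 5 genes, for each of them the 3 named probe sets with the highest Pearson r, and up to 5 called cell wall probe sets per comparison with M82. The cell wall list was written as patterns over symbols; it also caught PGH1 and ext1, whose symbols may stand for other proteins. Marker lists were summed on the linear scale. Alternatives left out each array, used the replicate number as a block, fitted only the groups compared, centred each array on its median, applied quantile normalization, dropped the dimmest 25% of probe sets, let the variance follow intensity, left out doubted arrays, or added the axis within groups. The replicate numbers did not pair the samples: deviations of same-numbered arrays correlated at -0.71 to 0.61 over 21 pairs.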

Additional observations from a re-analysis of the deposited data

Results flagged for a closer look

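In M82, the XTH1 value of replicate 1 (11.28) stood apart from the other 5 arrays, the nearest of which was at 13.13. It was the single array that stood apart among 15 groups of 4 or more arrays examined for the 5 genes, and chance marks about 1 group in 20. CAB4 was also lowest on that array within M82 (10.17) and fsm1 highest (12.73).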

How the results depend on the processing

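The rise of tXET-B2 in IL-1_1 over M82 kept its call in all 26 alternatives, at 2.03 to 2.81. The number of the 5 genes called in IL-1_1 against M82, 2 in the report, was 1 to 4 without single arrays, 1 without the 2 arrays with large 3-prime to 5-prime control differences and 1 with the axis covariate. Of all probe sets 12.2% were called in the report, 30.5% without M82 replicate 1 (where 4 genes were called), 4.64% and 4.17% without IL-1_1 replicates 1 and 4 (1 gene each), 5.49% without the 2 arrays and 5.43% with the covariate. Against IL-1_4 the number of the 5 genes called was 0 to 2 without single arrays (1 in the report). Of all probe sets 6% to 24.7% were called there, beside 17.6% in the report. The number was 0 without those 2 arrays (9.41% of all called) and 0 with the axis covariate (7.73%). It was also 0 without 3 doubted arrays together, IL-2_3 replicate 4 and replicate 1 of both M82 and IL-1_1 (17.7%). Against IL-2_3 the number of the 5 genes called was 1 to 2 without single arrays (2 in the report). Of all probe sets 2.96% to 8.26% were called there, beside 4.87% in the report. The number was 0 with only those groups fitted (2.37% of all called) and 1 without those 2 arrays (4.7%). It was 1 without the 3 doubted arrays (8.64%) and 1 with the axis covariate (5.19%). The cell wall count in IL-1_1 against M82 (6) was 0 to 14 without single arrays, where 4.17% to 30.5% of all probe sets were called. It was 2 with the replicate block (8.07% of all called) and 0 with only those groups (3.73%). It was 1 without the 2 arrays (5.49%) and 2 with the axis covariate (5.43%). It was 6 for the list without PGH1 and ext1, chosen after seeing the data. In IL-2_3 the cell wall count (0, with 0.901% of all probe sets called) was 0 to 1 without single arrays (0.673% to 0.99%). It was 1 without M82 replicate 4 (0.822%) and 1 with the axis covariate (1.35%). A fit of fewer arrays has fewer degrees of freedom; otherwise the cause was not tested. With the replicate number as a block, 2 of the 5 genes were called in IL-1_1 against M82, 1 against IL-1_4 and 2 against IL-2_3. The block thus changed none of these counts of the 5 genes. Of all probe sets 8.07%, 18.1% and 5.57% were called with the block, beside 12.2%, 17.6% and 4.87% in the report. The numbers share only a label: 3 of 17 arrays correlated best with a same-numbered array of another group. No called difference of the 5 genes changed sign. XTH6 and Xegip have no value without the dimmest 25%.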

Other observations

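Markers of other tissues gave these levels. TDR6, of the petal and stamen list, was bright, and the summed list of 3 probe sets ran from 12.50 to 12.81 in M82, 12.64 to 13.10 in IL-1_1, 12.70 to 12.80 in IL-1_4 and 12.77 to 12.89 in IL-2_3. TPI, a petal and stamen identity gene of the same list, averaged 5.48 and 4.97 in M82 on its 2 probe sets. The ripening list (PG2, E8, Psy1 and RIN, 6 probe sets) ran from 10.25 to 10.93 in M82 and from 10.69 to 11.23 in IL-1_1, with PG2 and RIN near the lowest values of the arrays, at 4.08 and 4.03 in M82. E8 averaged 5.14 in M82, and the probe sets of Psy1 averaged 10.03, 8.21 and 4.94 there. The ripening sum, taken on the linear scale, therefore mainly follows Psy1 and says little of the other ripening genes. Within groups this sum had r of -0.71 with XTH1, -0.72 with XTH6, 0.24 with tXET-B2 and 0.14 with XTH3 over 17 arrays. The petal and stamen list had r of -0.74 with XTH1, -0.69 with XTH6, 0.39 with tXET-B2 and 0.26 with XTH3. Its sum mainly follows TDR6, which averaged 12.6 in M82 and 12.87 in IL-1_1, and says little of TPI. By means TPI was lower in IL-1_1 than in M82, at 5.29 and 4.84 on its 2 probe sets.

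XTH3 split the IL-2_3 arrays most widely among the 5 genes, with an SD of 1.53 (n = 4), beside 1.03 in IL-1_1, 0.63 in M82 and 0.29 in IL-1_4. The low arrays were replicates 3 and 4, whereas XTH1 was low on replicate 4 alone. Whether this split lies between plants or between preparations was not tested, since the labels give neither.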
